A study of Mus musculus with 2 samples.

Results

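Mir375, Mir7-1, Mir7-2 and Mir7b are microRNA genes associated with neuroendocrine cells, and their expression was examined in small RNA of the fetal mouse lung. The members were the 4 genes of these names among the 1973 microRNA genes in both count tables, found by matching gene identifiers to GENCODE M21 symbols. All of the material was lung of B6NCrl mouse embryos at embryonic day 16.5, described in the labels as healthy, with males and females pooled and no treatment or mutant allele named. The libraries were labelled biological replicates 1 and 2 and form a single group. Replicate 2 was a pool of 41 embryos, and the labels used here state no number for replicate 1. RNA under 30 bases was sequenced.

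Pulmonary neuroendocrine cells are rare secretory cells of the airway epithelium that lie singly or in clusters near branch points, where they sense the airway content and release amines and peptides. miR-375 is best known from the endocrine pancreas, where it restrains insulin release, and it is also found in other secretory epithelia. miR-7 is a conserved microRNA of neurosecretory cells in brain and pancreas, and the circular RNA Cdr1as carries many binding sites for it. Most targets of a microRNA are recognised through its seed, the bases from position 2 to 8 of the mature strand. A microRNA hairpin can give a mature strand from its 5′ arm (5p), from its 3′ arm (3p) or from both.

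The annotated mature strands of the members (RefSeq, GRCm38.p6) are printed here because they determine which reads can be told apart, with the seed in capitals. Of 1005 hairpins and 1738 mature strands in the RefSeq table, 4 hairpins and 7 mature strands belonged to the members. The table used here held no entry for miR-375-3p.
miR-375-5p (Mir375): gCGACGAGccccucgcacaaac
miR-7a-5p (Mir7-1 and Mir7-2): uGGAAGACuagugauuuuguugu
miR-7b-5p (Mir7b): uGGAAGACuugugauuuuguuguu
miR-7a-1-3p (Mir7-1): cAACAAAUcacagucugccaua
miR-7a-2-3p (Mir7-2): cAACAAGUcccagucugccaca
miR-7b-3p (Mir7b): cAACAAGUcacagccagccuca

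The 5p strands of the 3 miR-7 genes had the same seed, GGAAGAC, which no other mature strand in the table had. The 5p strand of Mir7-1 was identical to that of Mir7-2. miR-7b-5p differed from it by the single substitution A10U (miR-7a-5p first, positions counted from 1 at the 5′ end) and was 1 base longer. The 3p strands were distinct in all 3 genes. miR-7a-1-3p and miR-7a-2-3p differed by 3 substitutions (A7G, A10C and U21C), and the first of these lies in the seed. miR-7a-2-3p and miR-7b-3p shared the seed AACAAGU and differed at 4 positions outside it. The seed of miR-375-5p occurred in no other gene of the table. No such search was possible for miR-375-3p, because the table held no entry for it. The counts are per gene, so they do not tell which strand of Mir375 was read.

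The hairpins of Mir7-1 and Mir7-2 show how far the identity reaches, with the longest stretch common to both in capitals.
Mir7-1: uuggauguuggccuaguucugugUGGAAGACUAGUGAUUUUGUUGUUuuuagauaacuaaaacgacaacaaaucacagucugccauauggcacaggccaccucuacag
Mir7-2: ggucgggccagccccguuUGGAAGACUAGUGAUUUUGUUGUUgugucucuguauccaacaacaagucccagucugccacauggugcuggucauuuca
The common stretch was 24 bases long, from base 24 to 47 of the Mir7-1 hairpin and from base 19 to 42 of that of Mir7-2, and it contained the whole 5p strand. In windows of 22 bases, about the length of a microRNA, 3 of 87 windows of Mir7-1 and 3 of 76 windows of Mir7-2 occurred in another hairpin, in each case that of the other gene. None of the 43 windows of Mir375 and none of the 90 windows of Mir7b occurred in another hairpin. A read that lies within the common stretch matches both loci. The tables give reads that match several loci a line of their own, with 3856768 reads in replicate 1 and 2684057 in replicate 2, or 30.0% and 31.8% of all reads. The genes those reads came from are not listed, and the counting program is not named. Whether reads of miR-7a-5p were left to that line or given to a gene was therefore not tested, and the counts of Mir7-1 and Mir7-2 are uncertain for this reason.

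**Figure D1:**
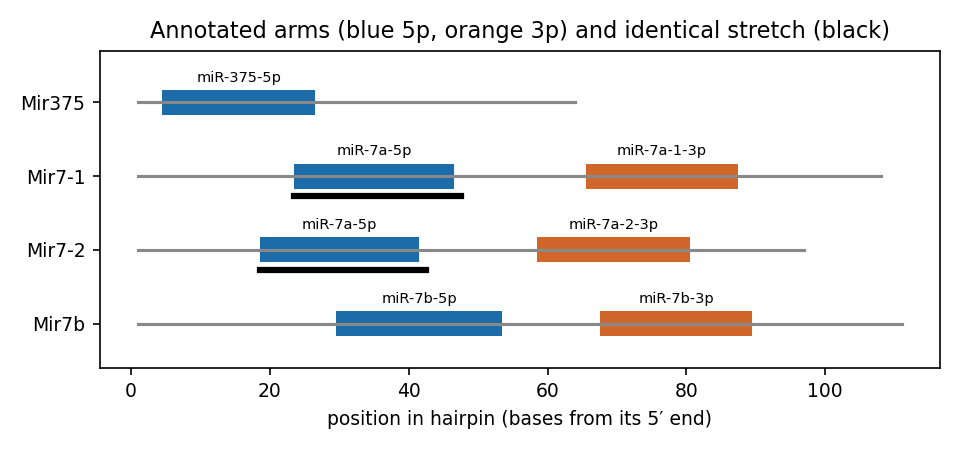
Position of the annotated mature strands along the hairpins of the 4 genes, in bases from the 5′ end of each hairpin (blue bars 5p, orange bars 3p, grey lines the hairpin). The black bar marks the 24 bases that are identical in Mir7-1 and Mir7-2, which cover the 5p strand and leave the 3p strands apart; no 3p strand is drawn for Mir375 because the table held none.

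The genes lie on 4 chromosomes (mm10, GENCODE M21, 1-based). Mir375 (ENSMUSG00000065616.2) lies at chr1:74900658-74900721 on the minus strand and overlaps no other annotated gene. Its nearest protein-coding neighbours are Cfap65, 1349 bases away, and Cryba2, 7514 bases away on the other side. Mir7-1 (ENSMUSG00000065434.1) lies at chr13:58392779-58392886 on the minus strand, inside Hnrnpk on the same strand and in no annotated exon of it, so it is intronic. Hnrnpk encodes a widely expressed RNA-binding protein. Mir7-2 (ENSMUSG00000065609.1) lies at chr7:78888277-78888373 on the plus strand between Det1 (41013 bases away) and Aen (7480 bases away). Mir7b (ENSMUSG00000065491.1) lies at chr17:56242988-56243098 on the plus strand between Dpp9 (24082 bases away) and Fem1a (13711 bases away). Neither Mir7-2 nor Mir7b overlaps another annotated gene.

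The first question was at what level each member was present. Depth was 6376715 counts over microRNA genes in replicate 1 and 4123748 in replicate 2. Levels are given as CPM, the counts of a gene scaled to 1000000 gene counts of its library. A single read corresponded to 0.157 CPM in replicate 1 and 0.243 CPM in replicate 2. The values are per gene and not divided by length, because a mature microRNA is read as a whole. With at least 10 counts in both libraries required for a gene to be called detected, 347 of 1973 genes were detected, among them 3 of the 4 members. Lung is a mixture of cells, so fewer cells of a type and less RNA per cell cannot be told apart in these values.

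Mir375 was the most abundant member by far. It had 16671 counts in replicate 1 and 11673 in replicate 2, which is 2614 CPM (95% exact Clopper-Pearson interval 2575 to 2654) and 2831 CPM (2780 to 2882). Its mean was 2723 CPM ± 153 (SD, n = 2), or 0.272% of gene counts. It ranked 59 in replicate 1, 54 in replicate 2 and 56 by the mean, and 83.9% of the detected genes had a lower mean. These ranks are those of the counted reads. Genes with copies elsewhere may have reads in the line for several loci, and the effect of this on the ranks was not tested. All intervals given here reflect the counting of reads alone, and PCR copies of a molecule are counted as separate reads.

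The miR-7 genes were each far below Mir375 in both libraries. Mir7-1, the copy inside Hnrnpk, had 409 counts in replicate 1 and 236 in replicate 2, or 64.1 CPM (58.1 to 70.7) and 57.2 CPM (50.2 to 65.0), with a mean of 60.7 CPM ± 4.89 (SD, n = 2). Mir7b had 213 and 133 counts, or 33.4 CPM (29.1 to 38.2) and 32.3 CPM (27.0 to 38.2), with a mean of 32.8 CPM ± 0.814 (SD, n = 2). Mir7-2 had 15 and 7 counts, or 2.35 CPM (1.32 to 3.88) and 1.70 CPM (0.683 to 3.50), and it missed the count minimum in replicate 2. The order Mir375, Mir7-1, Mir7b, Mir7-2 held in both libraries, and the intervals of neighbours in this order did not overlap in either. For Mir7-1 and Mir7-2 the order is that of the counted reads, given their common stretch.

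**Figure D2:**
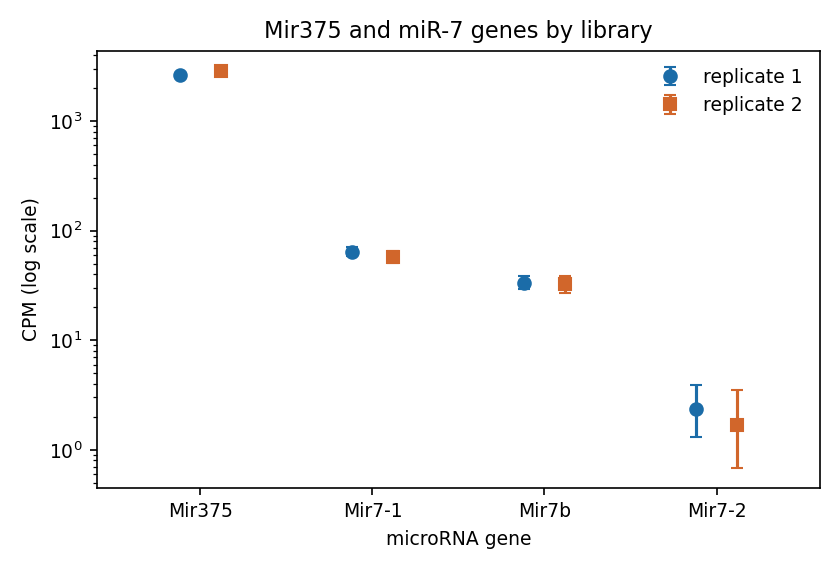
CPM of each member in replicate 1 (blue circles) and replicate 2 (orange squares) on a log axis, with exact 95% intervals of the counts as bars. The 2 libraries lie close together for every gene, and the genes are separated by more than their intervals, from a mean of 2723 CPM for Mir375 to 2.02 CPM for Mir7-2.

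The distance between the members was large against the spread between the libraries. Mir375 was 40.8-fold above Mir7-1 in replicate 1 and 49.5-fold in replicate 2. It was 78.3-fold and 87.8-fold above Mir7b. Mir7-1 was 1.92-fold above Mir7b in replicate 1 and 1.77-fold in replicate 2. Together the 3 miR-7 genes had 637 and 376 counts, or 99.9 and 91.2 CPM (mean 95.5 ± 6.16, SD, n = 2), and Mir375 made up 96.3% and 96.9% of the counts of the 4 members. If reads of miR-7a-5p were counted as matching several loci, the miR-7 sum does not include them. The multi-locus line held far more reads than the miR-7 sum, which amounted to 0.0165% of that line in replicate 1 and 0.0140% in replicate 2, and what part of the line was miR-7a-5p was not tested.

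All counts of the members fell in the same strand column. The count columns carry no names, and the strand column that held 97.4% and 97.3% of all gene counts in replicates 1 and 2 was taken as the sense strand from these values alone. In both libraries 100% of the counts of each member were in that column and 0 in the other. The lower limits of the exact 95% intervals were 99.98% and 99.97% for Mir375, 99.1% and 98.5% for Mir7-1, and 98.3% and 97.3% for Mir7b. For Mir7-2 the small counts allowed lower limits of only 78.2% and 59.0%. The levels of the members thus do not depend on whether one column or both are counted, apart from the library total.

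With 2 libraries a likeness of pattern across samples cannot be measured, so the genes nearest in mean level are named instead. Mir375 stood between Mir296 (2800 CPM ± 38.1) and Mir125a (2718 ± 68.9), with Mir22 (2890 ± 43.8) and Mir92-1 (2675 ± 92.1) next (mean ± SD, n = 2). Mir22 was above and Mir92-1 below Mir375 in both libraries. Mir296 and Mir125a were above it in replicate 1 and below it in replicate 2, so their order is within the spread. Around Mir7-1 lay Mir6236 (63.2 ± 23.1), Mir338 (61.1 ± 11.9), Mir345 (60.65 ± 4.49) and Mir199a-2 (60.6 ± 6.52). Mir7b lay between Mir877 (34.2 ± 2.70) and Mir138-1 (32.2 ± 7.19), with Mir194-2 (34.3 ± 4.27) and Mir452 (31.6 ± 3.27) beyond them. No neighbour of Mir7-1 or Mir7b among these kept its side of the member in both libraries. Mir92-1, Mir199a-2, Mir138-1 and Mir194-2 are numbered as copies, so some of their reads may match several loci. Their order relative to the members is thus that of the counted reads.

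The second question was how far the members differed between the pools. With a single library per pool, pool and library preparation cannot be told apart. Each gene was tested by an exact binomial test of its counts against the library totals, two-sided, with Benjamini-Hochberg adjustment over the 347 detected genes and a threshold of 0.05. This test compares the reads of these libraries, weighs a difference against counting error alone and holds no estimate of the spread between pools. Of the detected genes, 47.0% passed it in either direction, and 30.5% were higher in replicate 2. Only 5.19% passed it with a difference of at least 1.5-fold.

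Of the 3 detected members 1 passed, Mir375, and none differed by 1.5-fold. Mir375 was 1.08-fold higher in replicate 2 (95% interval 1.06 to 1.11, adjusted p = 2.48e-10 by the exact binomial test). That difference was smaller than the median over all detected genes, which was 1.12-fold in either direction, and 62.5% of the detected genes differed by more. Among the 194 detected genes at 100 CPM or more, where the counts resolve small differences, 72.7% passed the test and 101 differed by more than Mir375. Its standard deviation was 5.62% of its mean, against a median of 7.80% over detected genes. With 2 libraries this share follows from the same fold and is not a separate result.

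The miR-7 genes did not pass. The fold of replicate 2 over replicate 1 was 0.892 for Mir7-1 (0.757 to 1.05, adjusted p = 0.264 by the exact binomial test). For Mir7b it was 0.966 (0.772 to 1.20, adjusted p = 0.847 by the exact binomial test). The interval of Mir7b includes the fold of Mir375, and that of Mir7-1 ends below it. Mir7-2 was below the count minimum, and its ratio was 0.722 with an interval of 0.249 to 1.88, so its counts do not exclude any ratio within this interval. With a minimum of 5 counts it entered the test and did not pass (adjusted p = 0.685, exact binomial test). Relative to Mir7-1, Mir375 was 1.21-fold higher in replicate 2 than in replicate 1 (interval 1.03 to 1.43, adjusted p = 0.0568 over 3 pairs, Fisher's exact test). The ratio of Mir375 to Mir7b changed by 1.12-fold (0.898 to 1.40) and that of Mir7-1 to Mir7b by 0.924-fold (0.70 to 1.22), with adjusted p = 0.484 and 0.582 by Fisher's exact test.

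**Figure D3:**
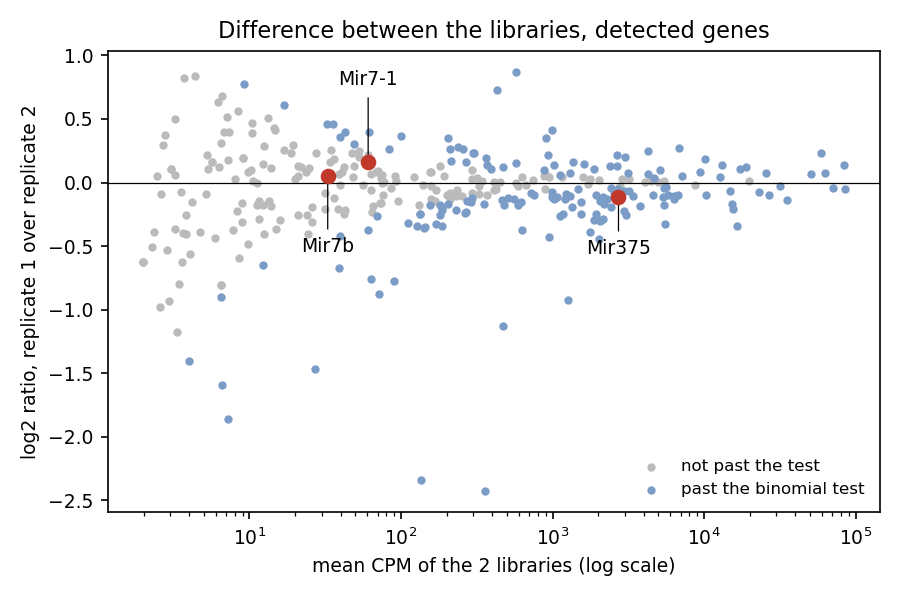
Log2 ratio of replicate 1 over replicate 2 against mean CPM (log axis) for the 347 detected genes, with genes past the binomial test in blue, the others in grey and the 3 detected members in red. Mir375 (-0.11), Mir7-1 (0.16) and Mir7b (0.05) lie within the main band of genes of their level.

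The split of all calls depended on the scale, and the call of Mir375 did not. Relative to gene totals 57 genes were higher in replicate 1 and 106 in replicate 2. When TMM factors (edgeR) set the scale, 74 and 84 genes were higher, and the size factors of DESeq2 gave 78 and 75. Mir375 was higher in replicate 2 on each scale, by 1.06-fold with TMM factors (adjusted p = 3.205e-05, exact binomial test) and by 1.04-fold with DESeq2 size factors (adjusted p = 0.000953, exact binomial test).

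The third question was how Mir375 compared with microRNAs of other cell types. The lists named here were chosen with earlier results of these data known. The miR-200 family, which maintains epithelial identity in the airways, had 5 of 5 members detected and summed to 32596 CPM in replicate 1 and 33935 in replicate 2. That was 12.5-fold and 12.0-fold the level of Mir375. Its highest member was Mir429 (14764 CPM ± 461, SD, n = 2) and its lowest Mir200a (1028 ± 68.7), so Mir375 lay above Mir200a and Mir141 (1587 ± 35.8) and below the other 3. The miR-183 cluster (Mir96, Mir182 and Mir183), known from sensory and neuroendocrine cells, had 3 of 3 detected. It summed to 6651 and 6874 CPM, or 2.54-fold and 2.43-fold Mir375. Mir182 (3206 ± 38.0) was above Mir375 and Mir183 (2439 ± 230.2) and Mir96 (1118 ± 34.4) were below it in both libraries.

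The multiciliated list, of cells that clear mucus from the airway, had 5 of 5 members detected and summed to 15458 and 19622 CPM. Most of this was Mir449a, at 14580 CPM in replicate 1 and 18445 in replicate 2. Mir34c (803 and 1080 CPM), Mir34b, Mir449b and Mir449c were below Mir375 in both libraries. The neural list had 10 of 15 members detected, and Mir9-1, also listed, was not found by its symbol. The counted reads of the list summed to only 594 and 672 CPM. Mir375 alone was 4.40-fold and 4.21-fold above this sum of the whole list. Its highest members were Mir132, induced by neuronal activity, at 230 CPM ± 11.7 and Mir137 at 140.5 ± 1.56 (SD, n = 2). Mir153, whose host gene Ptprn2 encodes a secretory-granule protein, had 21.5 and 17.5 CPM. The low values of Mir124a-1, Mir124a-2 and Mir124a-3 (0 or 1 count each) and of Mir9-2 and Mir9-3 (0 to 14 counts) belong to genes with near-identical copies, for which the counting is uncertain. The list also holds Mir128-1 and Mir128-2, Mir129-1 and Mir129-2, and Mir138-1 and Mir138-2, for which no comparison of strands is given here. Every value for the sum of this list, and for Mir375 relative to it, is uncertain for this reason.

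Since miR-375 is abundant in the endocrine pancreas, microRNAs of other organs of the foregut were read in the same libraries. Mir216a, Mir216b and Mir217, which mark the exocrine pancreas, had 6, 5 and 6 counts in replicate 1 and 0, 3 and 7 in replicate 2, at most 1.70 CPM in either library. No microRNA restricted to the endocrine pancreas was in the list. Mir192, of liver and gut, had 65.2 and 62.3 CPM. Mir122, of hepatocytes, had 111 CPM in replicate 1 and 601 in replicate 2. Mir194-1 (11 and 2 counts) and Mir194-2 (238 and 129 counts) are numbered as copies, so their counting is uncertain too. The same limit holds for the sum of this list and for Mir375 relative to it. The whole list (4 of 8 detected) summed to 228 CPM in replicate 1 and 704 in replicate 2. Its part in the level of Mir375 was not tested.

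Between the libraries, Mir375 (1.08-fold higher in replicate 2) differed by less than the multiciliated and foregut sums. Relative to gene totals, the sums were higher in replicate 2 by 1.04-fold for the miR-200 family (1.03 to 1.05), 1.03-fold for the miR-183 cluster (1.02 to 1.05), 1.27-fold for the multiciliated list (1.26 to 1.28), 1.13-fold for the neural list (1.08 to 1.19) and 3.08-fold for the foregut list (2.89 to 3.28). The small differences of the epithelial lists depended on the scale: with DESeq2 size factors the miR-200 sum was at 1.00-fold (0.998 to 1.01) and the miR-183 sum at 0.997-fold (0.982 to 1.01), and with TMM factors the miR-183 sum was at 1.01-fold (0.992 to 1.02). The other 3 sums were higher in replicate 2 on each of the 4 scales. The background of genes past the binomial test was 47.0%, and 72.7% among detected genes at 100 CPM or more. All members of the miR-200 family and the miR-183 cluster had means above 100 CPM. In the miR-200 family 4 of 5 passed (3 higher in replicate 2, but 1 of 3 with DESeq2 size factors). In the multiciliated list 3 of 5 passed (3 higher in replicate 2). In the miR-183 cluster 2 of 3 passed (1 each way, but 2 of 3 higher in replicate 1 with DESeq2 size factors). In the neural list 3 of 10 passed (2 higher in replicate 2). These were Mir128-1 (1.71-fold) and Mir128-2 (2.77-fold), higher in replicate 2, and Mir138-1 (0.728-fold), lower. In the foregut list 1 of 4 passed (Mir122, higher in replicate 2). The median log2 ratio of replicate 1 over replicate 2 was -0.03, -0.34, 0.02, -0.06 and 0.16 in the same order, and -0.05 over all detected genes.

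The ratio of Mir375 to each list was compared between the libraries with Fisher's exact test of the read counts, adjusted over 5 lists. Such a ratio within a library does not depend on the scale. Relative to the miR-200 family Mir375 was 1.04-fold higher in replicate 2 (1.02 to 1.07, adjusted p = 0.00224, Fisher's exact test), and relative to the miR-183 cluster 1.05-fold higher (1.02 to 1.08, adjusted p = 0.00196). Relative to the multiciliated list Mir375 was lower in replicate 2, at 0.853 of its ratio in replicate 1 (0.832 to 0.875, adjusted p = 2.32e-34, Fisher's exact test). Relative to the foregut list it was at 0.351 (0.329 to 0.376, adjusted p = 4.22e-216), in a list where Mir122 had 711 of 1457 counts in replicate 1 and 2477 of 2903 in replicate 2. Against the neural list it was at 0.957 (0.906 to 1.01, adjusted p = 0.116, Fisher's exact test). As before, these tests compare the reads of 2 libraries and not conditions.

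**Figure D4:**
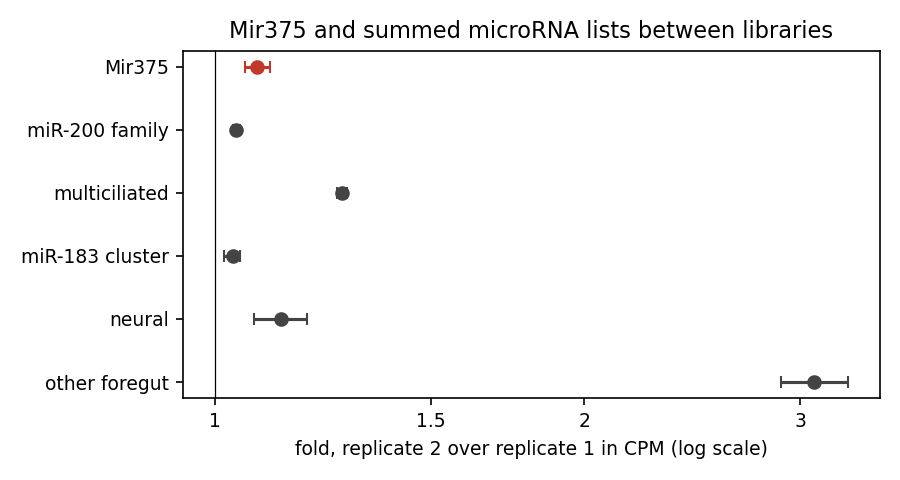
Fold of replicate 2 over replicate 1 in CPM (log axis) for Mir375 (red) and for the summed counts of each list (dark points), relative to gene totals, with exact 95% intervals of the counts; the vertical line marks equal levels. Mir375 (1.08) lies near the miR-200 family (1.04), the miR-183 cluster (1.03, but 0.997 with DESeq2 size factors) and the neural list (1.13), below the multiciliated list (1.27) and far below the foregut list (3.08).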

How the data were processed

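Per the file headers, the deposited tables refer to assembly mm10 and GENCODE M4 and derive from aligned reads. The authors deposited raw read counts per microRNA gene in 3 unnamed columns, with 4 summary lines. Not given in the sources used here are the aligner, the counting program and any trimming. The first column was used. In each of the 1973 genes it was the other 2 added, so it was read as counts without strand, and the column with 97.4% and 97.3% of gene counts as the sense strand. These meanings were inferred from the values. Summary lines stayed out of gene totals. These hold reads outside genes, unmapped or at several loci.

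Symbols and coordinates came from GENCODE M21 on mm10 (1894 of 1973 identifiers matched) and sequences from RefSeq (GRCm38.p6). CPM, exact Clopper-Pearson intervals, exact binomial tests over 347 detected genes and Fisher's exact tests were computed in Python 3.11.15 with scipy 1.17.1. A test of conditions was not possible with 1 group. edgeR 4.0.16 and DESeq2 1.42.0 gave alternative scale factors. Other alternatives were the count column, the denominator, the count minimum (1, 5 or 20) and each replicate left out. The binomial test was checked on simulated counts that held counting error alone, so the check does not cover spread between pools. Named genes were the members, genes sharing a seed, the 2 detected genes above and below each detected member in mean CPM, and members of the lists. The members and lists were chosen with earlier results of these data known.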

Additional observations from a re-analysis of the deposited data

How the results depend on the processing

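Over 73 combinations of a result and an alternative, 62 kept their direction and their side of the threshold or moved by less than the spread, and 8 levels moved. The other 3 were list sums on other scales, an alternative chosen after seeing the data. Part of the 62 was fixed in advance. With 2 libraries, leaving out either replicate always moves a mean by less than its SD. Dropping the filter on low counts leaves a ratio unchanged, so only its adjusted p could move. The miR-183 sum (1.03-fold higher in replicate 2) came to 0.997-fold with DESeq2 size factors, and its interval included 1 there and at 1.01-fold with TMM factors. The interval of the miR-200 sum included 1 at 1.00-fold with DESeq2 size factors. These factors differ from the gene totals by a constant for all genes of a library. With all reads of a table as the denominator, scaled to 1000000, the mean levels were 1338 for Mir375, 29.9 for Mir7-1, 16.1 for Mir7b and 0.997 for Mir7-2. Without the most abundant gene in the totals they were 2975 CPM for Mir375, 66.3 for Mir7-1 and 35.9 for Mir7b. With the sense-strand column Mir7b was at 33.7 CPM. These shifts follow from the denominators, which rescale every gene of a library alike. Leaving out each replicate in turn gave 2614 to 2831 CPM for Mir375, 57.2 to 64.1 for Mir7-1, 32.3 to 33.4 for Mir7b and 1.70 to 2.35 for Mir7-2. With a minimum of 5 counts or of 1 count, all 4 members were counted as detected. Mir375 was the single member past the binomial test under each scale, column and minimum tried, with adjusted p from 1.73e-10 to 0.000953 by the exact binomial test. The number of detected genes past the test ranged from 153 to 165. No paired analysis was possible because the samples form 1 group. Depth limits Mir7-2 in particular, since a count of 0 would allow up to 0.470 CPM in replicate 1 and 0.727 CPM in replicate 2.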

Other observations

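The gene annotated as Mir7j has the number of the miR-7 family in its symbol but not its seed. Its mature strand, on chromosome 3 (140028281 to 140028304, plus strand), is named let-7j by RefSeq and is shown with its seed in capitals.
let-7j (Mir7j): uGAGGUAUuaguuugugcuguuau
Its seed was found in 1 other gene of the table, Mir202, and in none of the miR-7 genes. Mir7j had 720 counts in replicate 1 and 362 in replicate 2, or 113 and 87.8 CPM, all on the sense strand. It was above the sum of the 3 miR-7 genes in replicate 1 and below it in replicate 2. It is not part of any miR-7 value given here.

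Mir7-1 and Mir7-2 belong to a class of genes with 1 mature strand identical in another gene and the other strand distinct. This grouping was chosen after the values were seen and is a description without a test. Among RefSeq genes with 2 annotated strands that are in the count tables, 53 were of this class, and 35 of them (66.0%) were detected, at a median of 49.2 CPM. Of the 513 genes with no strand identical in another gene, 218 (42.5%) were detected, at a median of 280.1 CPM. Of the 16 genes with both strands identical elsewhere, 3 were detected. Mir7-1 (60.7 CPM) lay above the median of the first class, and 14 of its detected genes were higher. Mir7b (32.8 CPM), which has no strand identical in another gene, lay below the median of its own class.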
